A study of Mus musculus with 12 samples.

Results

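The kallikreins are a family of secreted serine proteases, and 7 of their genes were followed here in mouse kidney: Klk1, Klk1b5, Klk1b21, Klk1b22, Klk1b27, Klk8 and Klk10. They were taken as a listed set of names that was selected on earlier results of the same 12 arrays, where their signals by stage and region were known, so the levels and differences of the listed genes are a description and support no claim about the family. Where the text says that a listed gene passed the threshold, this only places it in the fit over all genes. Of the 7 genes, 6 had a probe set that the platform annotation ties to 1 symbol alone, with 10 such probe sets in all. Of these 10, 4 carry an ID ending in _x_at, which marks probes that may also bind related transcripts, and none ends in _s_at. Klk1b22 had no probe set of its own. For the tests across genes, the brightest single-symbol probe set stood for each of 18193 genes, and 13037 of them were kept because some group had both of its arrays above that array's median. Klk1, Klk1b5, Klk1b21, Klk1b27 and Klk8 were among them and Klk10 was not, so 5 of the 7 listed genes were tested.

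The arrays measured 3 stages, each from medulla and from cortex of mouse kidney: whole tissue, renal progenitor cells isolated from those regions and cultured on feeder fibroblasts, and organoids made from renal progenitor cells in a 3D Matrigel culture. Each of the 6 groups had 2 arrays labelled as biological replicates, 12 arrays in all. The labels name no treatment, strain, age or sex, and they do not say whether replicates came from separate animals or cultures, so the p-values below measure the spread between these samples. The deposited values are log2 MAS5 signals, a brightness per probe set scaled to a common target on each array.

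Klk1 encodes tissue kallikrein, the enzyme that cuts kininogen to release kinins, which act on bradykinin receptors. In the kidney it is made by cells of the connecting tubule and secreted into the tubule fluid, where it can also cleave the gamma subunit of the epithelial sodium channel. The Klk1b genes are paralogs of Klk1 that multiplied in rodents, are best known from the salivary gland, and include enzymes that process growth factor precursors. Klk8, or neuropsin, and Klk10 belong to the older branch of the family and are known from skin and other stratified epithelia, and Klk8 also from brain. In RefSeq's mouse annotation (GRCm38.p6), 37 genes and pseudogenes with Klk symbols lie on chromosome 7, among 40 genes from the first to the last of them, and all 7 listed genes are there. Klk1 and Klk1b5 are neighbours in that order.

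Klk1 was among the brightest signals of the kidney tissue arrays, near the bottom of the scale in progenitor cells, and intermediate in organoids. On its unmarked probe set the log2 signal was 14.998 and 15.39 in medulla tissue and 15.23 and 15.48 in cortex tissue. It was 3.79 and 1.42 in medulla progenitor cells and 3.34 and 1.14 in cortex progenitor cells. It was 8.57 and 6.77 in medulla organoids and 9.89 and 10.01 in cortex organoids. The 3 stages did not overlap, and cortex organoids lay above medulla organoids. On the linear scale the means were 37811 and 42055 signal units in medulla and cortex tissue, 8.26 and 6.15 in medulla and cortex progenitor cells, and 244 and 989.8 in medulla and cortex organoids. On every tissue array this probe set ranked between 4 and 10 from the top of all probe sets, and on progenitor arrays it lay between percentiles 6.09 and 24.5. In bulk samples such as these, fewer cells of a type and less RNA per cell cannot be told apart.

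**Figure D1:**
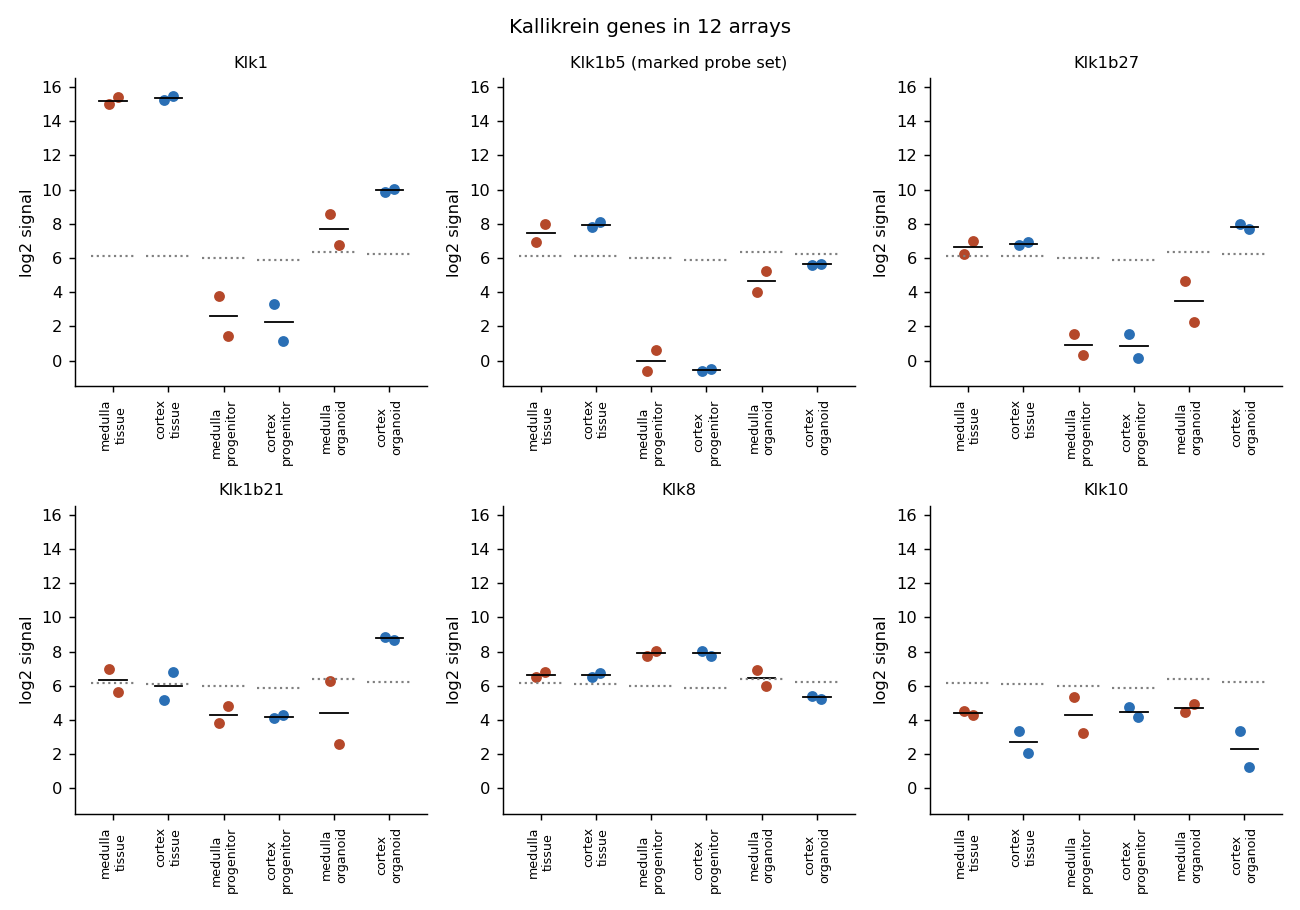
Log2 signal of 6 kallikrein genes on the 12 arrays, from the brightest single-symbol probe set of each. Red points are medulla arrays and blue points cortex arrays, black bars are the means of the 2 arrays of a group, and dotted grey lines are the mean of the array medians. Klk1, Klk1b5 and Klk1b27 are lowest in progenitor cells, Klk1b21 is highest in cortex organoids (8.88 and 8.67), Klk8 is highest in progenitor cells, and Klk10 lies below the array median throughout.

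Klk1b5 followed the same stage order. Its marked probe set read 6.96 and 8.002 in medulla tissue and 7.82 and 8.08 in cortex tissue. It read -0.63 and 0.61 in medulla progenitor cells and -0.60 and -0.47 in cortex progenitor cells, then 4.04 and 5.23 in medulla organoids and 5.61 and 5.65 in cortex organoids. On this probe set the 3 stages did not overlap. The second Klk1b5 probe set, which is unmarked, gave 1.40 and 5.24 in the 2 medulla organoid arrays, so these replicates differed there by most of the range between progenitor cells and cortex organoids. Only the tissue arrays carried Klk1b5 above the array median.

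Klk1b27 and Klk1b21 differed from Klk1 and Klk1b5 in the organoids. Klk1b27 read 6.25 and 7.01 in medulla tissue and 6.78 and 6.91 in cortex tissue, and no more than 1.55 on any progenitor array. It read 4.67 and 2.28 in medulla organoids and 7.96 and 7.68 in cortex organoids. The cortex organoids were thus above all 4 tissue arrays, while the medulla organoids were below them. Klk1b21 had the same highest group, with 8.88 and 8.67 in cortex organoids against 6.999 and 5.65 in medulla tissue and 5.17 and 6.82 in cortex tissue. Its medulla organoid arrays read 6.27 and 2.58, the widest gap between replicates of any group for this gene, and its progenitor arrays lay between 3.81 and 4.79. Klk1b21 was tested only because cortex organoids carried it above the array median.

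Klk8 ran the other way. Its signal lay between 6.49 and 6.80 on the tissue arrays. It was 7.74 and 8.05 in medulla progenitor cells and 8.05 and 7.77 in cortex progenitor cells, above every other array. Organoids read 6.89 and 5.96 in medulla and 5.38 and 5.25 in cortex, so only the medulla organoids overlapped tissue. Klk10 stayed below the array median on all 12 arrays, with values from 1.23 to 5.35, and no order among its groups is read from such dim signals.

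Klk1b22 could be seen only through a marked probe set that the annotation assigns to Klk1b9 and Klk1b22 together. It read 12.27 and 13.98 in medulla tissue, 13.90 and 14.28 in cortex tissue, between 6.04 and 6.58 in progenitor cells, 9.03 and 9.87 in medulla organoids, and 10.79 and 10.57 in cortex organoids. The stage order was that of Klk1. Which of the 2 genes, or which related transcript, gave this signal cannot be told apart.

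The stretches just upstream of 5 genes are printed because the genes fall into different patterns: Klk1 and Klk1b5 highest in tissue, Klk1b21 and Klk1b27 highest in cortex organoids, and Klk8 highest in progenitor cells. Each line is the 250 bases before the annotated start in RefSeq (GRCm38.p6), 5′ to 3′, and capitals mark TTTAAA, a variant of the TATA box.
Klk1, chr7:44225110-44225359, + strand: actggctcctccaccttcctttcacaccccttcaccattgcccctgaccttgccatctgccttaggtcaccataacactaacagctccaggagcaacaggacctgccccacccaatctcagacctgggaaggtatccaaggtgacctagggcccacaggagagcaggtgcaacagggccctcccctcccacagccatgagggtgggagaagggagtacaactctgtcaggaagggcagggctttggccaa
Klk1b5, chr7:44216224-44216473, + strand: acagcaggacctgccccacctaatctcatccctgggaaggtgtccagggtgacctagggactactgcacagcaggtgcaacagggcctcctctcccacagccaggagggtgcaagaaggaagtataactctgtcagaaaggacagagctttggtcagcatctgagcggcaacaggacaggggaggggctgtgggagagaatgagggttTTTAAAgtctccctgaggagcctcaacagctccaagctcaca
Klk1b21, chr7:44102042-44102291, + strand: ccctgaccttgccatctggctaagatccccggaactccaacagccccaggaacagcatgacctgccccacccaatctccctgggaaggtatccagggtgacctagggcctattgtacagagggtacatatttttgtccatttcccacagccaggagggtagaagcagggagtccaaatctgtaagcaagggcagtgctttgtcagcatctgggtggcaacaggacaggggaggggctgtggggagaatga
Klk1b27, chr7:44052040-44052289, + strand: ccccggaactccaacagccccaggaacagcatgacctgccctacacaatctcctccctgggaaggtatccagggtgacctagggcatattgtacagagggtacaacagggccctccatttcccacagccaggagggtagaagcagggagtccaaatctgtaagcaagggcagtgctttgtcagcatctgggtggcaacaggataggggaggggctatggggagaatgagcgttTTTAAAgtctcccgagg
Klk8, chr7:43797327-43797576, + strand: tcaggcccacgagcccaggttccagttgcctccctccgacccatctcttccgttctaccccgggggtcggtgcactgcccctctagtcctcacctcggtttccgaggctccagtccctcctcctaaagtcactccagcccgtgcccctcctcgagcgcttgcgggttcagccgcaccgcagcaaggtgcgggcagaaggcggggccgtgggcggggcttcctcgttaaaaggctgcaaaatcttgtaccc
Over an end-to-end alignment, the Klk1b21 and Klk1b27 stretches were identical at 76.8% of aligned columns, and Klk1b5 and Klk1b27 at 69.7%. Klk1 and Klk1b5, whose signals ran most alike, were identical at 50.4%, and Klk8 matched the other 4 printed stretches at 43.7% to 47.2%. The windows are not in register: the run gacctgccccacc lies near the left end in Klk1b5 and much further in for Klk1. The alignment spans whole windows and counts their unshared ends. The percentages therefore depend on the annotated starts and do not measure how related the upstream sequences are. TTTAAA was searched on both strands, where it reads the same, and occurred in 3 of the 7 listed genes: Klk1b5, Klk1b22 and Klk1b27. It occurred in 12.1% of 32851 mouse promoter windows of the same length. TATAAA occurred in 0 of the 7 and in 12.4% of all windows. AGAACA, a half-site of the androgen and glucocorticoid receptors, occurred in 1 of the 7 (Klk10) and in 16.1% of all windows. These are matches of letters within windows set by the annotated starts. The Klk1b21 window ends at gagaatga, a run that lies shortly before TTTAAA in Klk1b5 and Klk1b27. The lack of TTTAAA in that window therefore does not show that the gene lacks it. The match lies 17 to 12 bases before the annotated start in Klk1b27 and 42 to 37 in Klk1b5.

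The first comparison asked how cultured progenitor cells differ from the tissue they were isolated from. Klk1 fell by 10.83 ± 0.30 on the log2 scale in progenitor cells relative to tissue (log2 difference ± standard error from limma, 4 arrays on each side, after adding 15.1473 signal units to every value, which makes differences of dim genes smaller). Klk1b5 fell by 3.82 ± 0.27, Klk1b27 by 2.83 ± 0.28 and Klk1b21 by 1.37 ± 0.46. Klk8 rose by 1.16 ± 0.23. All 5 tested genes passed an adjusted p of 0.05, against 72.7% of all tested genes (36.8% higher and 35.9% lower), and all 5 had progenitor and tissue arrays that did not overlap, against 73% of all genes. Their median difference was -2.83, beside 0.03 over all tested genes. Most genes changed between these stages, and 4 of the 5 passed the filter on brightness through tissue, so the count says nothing particular about the family. The Klk1b21 call rests on single arrays: without cortex tissue replicate 2, medulla tissue replicate 1 or medulla progenitor replicate 1 in turn, the Klk1b21 difference was -1.04, -1.08 and -1.23 and did not pass.

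The second comparison asked what changes when progenitor cells form organoids. Klk1 rose by 4.43 ± 0.30 in organoids relative to progenitor cells, Klk1b27 by 2.27 ± 0.28, Klk1b21 by 2.04 ± 0.46 and Klk1b5 by 1.68 ± 0.27, and Klk8 fell by 1.77 ± 0.23. All 5 genes thus moved opposite to their progenitor-against-tissue difference. Both comparisons use the same progenitor arrays, so the opposite directions are not independent observations. The 5 of 5 called stand against 72.3% of all tested genes, with 28.1% higher and 44.3% lower. Klk1b21 was tested only through cortex organoids, where it is high, so its rise and its place in this count are a description. Arrays of organoids and progenitor cells did not overlap for 4 of the 5, all but Klk1b21, against 60.9% of all genes. For Klk1b5 this holds on the marked probe set, and on the unmarked one medulla organoid replicate 1 (1.40) lay below medulla progenitor replicate 1 (1.48).

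Organoids remained below tissue for Klk1 and Klk1b5. The organoid-minus-tissue difference was -6.39 ± 0.30 for Klk1 and -2.14 ± 0.27 for Klk1b5, and the arrays did not overlap. For Klk8 it was -0.61 ± 0.23, with overlapping arrays, and this call was lost when any 1 of 4 arrays was left out (cortex tissue replicate 2, medulla tissue replicate 2, and replicate 2 of either organoid group, differences -0.41 to -0.59). Klk1b21 (0.68 ± 0.46) and Klk1b27 (-0.56 ± 0.28) did not pass. The 3 of 5 called compare with 79.7% of all tested genes (33% higher and 46.6% lower), and the 2 of 5 without overlap with 66.4%. Klk1b5 was tested only through tissue, where it is high, so its difference and its place in both counts are a description.

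The averages over both regions cover differences of opposite sign for those Klk1b genes, and whether the organoid-against-tissue change depends on region was not tested. In cortex, Klk1b21 was 2.48 ± 0.65 higher in organoids than in tissue, where 30.8% of all genes were called higher. Klk1b21 was tested only because its cortex organoid signal was high, so its cortex organoid differences are values with no test behind them. In medulla its difference was -1.13 ± 0.65 and did not pass. Klk1b27 differed by 0.89 ± 0.39 in cortex, which did not pass, and by -2.01 ± 0.39 in medulla, which passed (42.3% of all genes were called lower there). Klk1 was below tissue in both regions, with differences of -7.40 ± 0.43 in medulla and -5.38 ± 0.43 in cortex, where 41.1% of all genes were called lower. From progenitor cells to organoids, Klk1 rose by 3.28 ± 0.43 in medulla and by 5.58 ± 0.43 in cortex, where 23.7% and 24.3% of all genes were called higher. In cortex, Klk1b27 rose by 3.82 ± 0.39 and the Klk1b21 difference was 3.76 ± 0.65, and their medulla differences of 0.73 ± 0.39 and 0.32 ± 0.65 did not pass.

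**Figure D2:**
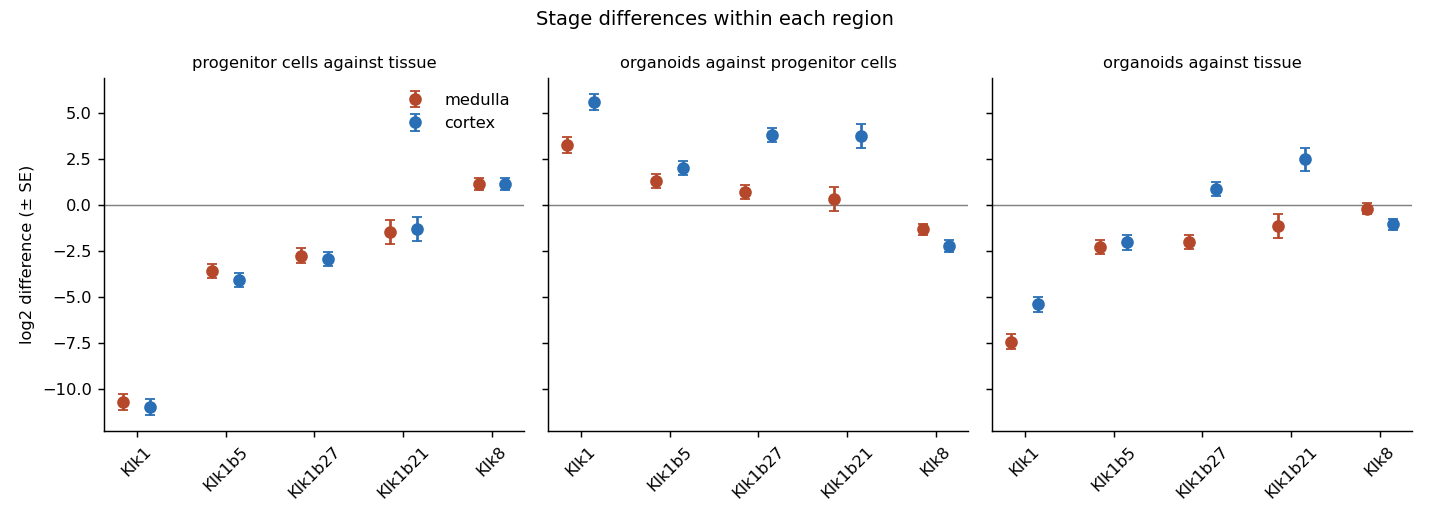
Log2 difference between stages for the 5 tested kallikrein genes, shown apart for medulla (red) and cortex (blue), with bars of 1 standard error from the fit over all 12 arrays. The progenitor-against-tissue differences nearly coincide in the 2 regions, and in organoids the medulla values of Klk1 (3.28 over progenitor cells), Klk1b27 (0.73) and Klk1b21 (0.32) lie below the cortex values (5.58, 3.82 and 3.76).

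Medulla and cortex were then compared within each stage. In tissue, 0 of the 5 kallikrein genes differed in limma, with differences between -0.43 and 0.25 and 0 at an unadjusted p under 0.05, where 0.338% of all genes were called. In progenitor cells, 0 of the 5 differed either, with differences between -0.01 and 0.12 and 0 at an unadjusted p under 0.05 (0.314% of all genes called). As a check of the tissue labels, the 7 proximal tubule genes had medulla-minus-cortex differences from -0.79 to -0.02, the 5 loop of Henle genes from 0.00 to 0.52 and the 8 collecting duct genes from -0.46 to 0.98. Of these, 0 passed in limma, with 0, 0 and 2 at an unadjusted p under 0.05. Of 8 tested stratified epithelium genes, 1 was called: Sprr1a was higher in medulla tissue by 3.58 ± 0.38 (adjusted p = 0.001502). The median difference of the 8 was 0.75, and among those not called, Krt6a and Tgm1 read slightly lower in medulla than in cortex tissue.

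In organoids the regions separated. Klk1, Klk1b27 and Klk1b21 were lower in medulla organoids than in cortex organoids, with medulla-minus-cortex differences of -2.18 ± 0.43, -3.08 ± 0.39 and -3.36 ± 0.65 and 2 arrays on each side. Klk1b5 (-0.67 ± 0.39) and Klk8 (0.89 ± 0.32) did not pass. Beside the 3 of 5 called, 18% of all genes were called, 10% in the lower direction. Nothing is read from this, since the genes were selected with these signals known and Klk1b21 was tested only through cortex organoids, where it is high. Without medulla organoid replicate 1 the differences of Klk1 and Klk1b21 were -3.01 and -4.42, and without medulla organoid replicate 2 they were -1.35 and -2.29. Arrays of the 2 regions did not overlap for all 5 genes, against 50.3% of all genes. With the 4 organoid arrays fitted alone, 1 of the 5 was called, Klk1b27. The probe sets of Klk1 were divided on this difference: the second bright one, which is marked, gave -1.99 ± 0.30 (7.79% of all probe sets were called lower), but the others gave 0.13 ± 0.35 and -0.25 ± 0.25.

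The difference between regions in the organoid-against-progenitor change was fitted as an interaction, and its values too are a description. The medulla change minus the cortex change was -3.09 ± 0.55 for Klk1b27, which passed. For Klk1 (-2.30 ± 0.60), Klk1b21 (-3.44 ± 0.91), Klk1b5 (-0.70 ± 0.55) and Klk8 (0.90 ± 0.46) it did not. Of all genes, 4.1% passed. The count moved between 0 and 4 with single arrays left out: it was 0 without any 1 of the 4 progenitor arrays or cortex organoid replicate 1, 3 without medulla organoid replicate 1 and 4 without medulla organoid replicate 2. For the progenitor-against-tissue change, 0 of the 5 depended on region in limma, 0 at an unadjusted p under 0.05, and 0.284% of all genes passed.

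Other measures moved with the organoid regions or with stage. The 9 listed fibroblast genes had a mean log2 signal of 8.69 and 8.46 in medulla organoids, against 5.59 and 6.49 in cortex organoids. Of the 9, 8 were called higher in medulla organoids. In this comparison 18% of all tested genes were called in either direction. The genes called lower made up 10% of all tested genes, and the rest of the 18% were called higher. The Gapdh 3′ minus 5′ control difference, a sign of RNA quality and labelling, was -0.233 to 0.183 in tissue, -0.405 to -0.298 in progenitor cells and 0.867 to 1.67 in organoids. Within organoids it was 1.15 and 0.867 in medulla and 1.53 and 1.67 in cortex. The same difference for beta-actin had another stage order, highest in tissue and lowest in organoids. It was 0.938 to 1.63 in tissue, 0.163 to 0.187 in progenitor cells and -0.002 to 0.149 in organoids. The medulla organoid replicates differed by a median of 0.414 on the log2 scale, against 0.128 to 0.226 in the other groups. Poly-A spike-in controls had array medians of 7.96 to 8.83 in tissue, 7.03 to 7.37 in progenitor cells and 1.21 to 1.88 in organoids. The fibroblast mean was 7.79 to 8.78 in tissue and 8.64 to 8.95 in progenitor cells, which were grown on feeder fibroblasts. The part of these in the kallikrein differences was not tested.

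Klk1 had 4 probe sets, and they did not all tell the same story. The unmarked one and a marked one of like brightness (A in the plot of Klk1 probe sets) ran together, and a second marked one (B) followed the same stage order between 2.37 and 11.74. The last marked one (C) lay between 7.30 and 9.73 on all 12 arrays. It was the only one whose progenitor and tissue signals did not differ past the threshold (-0.23 ± 0.17), and in organoids it was higher than in progenitor cells (1.74 ± 0.17) and also higher than in tissue (1.51 ± 0.17). The other 3 were lower in organoids than in tissue, with differences of -6.39, -6.36 and -3.87. In this fit of every probe set on its own, 24203 probe sets were tested and 41.1% were called higher and 38.3% lower in organoids against tissue, 34.1% higher in organoids against progenitor cells, and 30.2% lower in progenitor cells against tissue. Klk1b5's 2 probe sets gave like differences, -3.82 ± 0.28 and -3.46 ± 0.36 in progenitor cells against tissue.

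**Figure D3:**
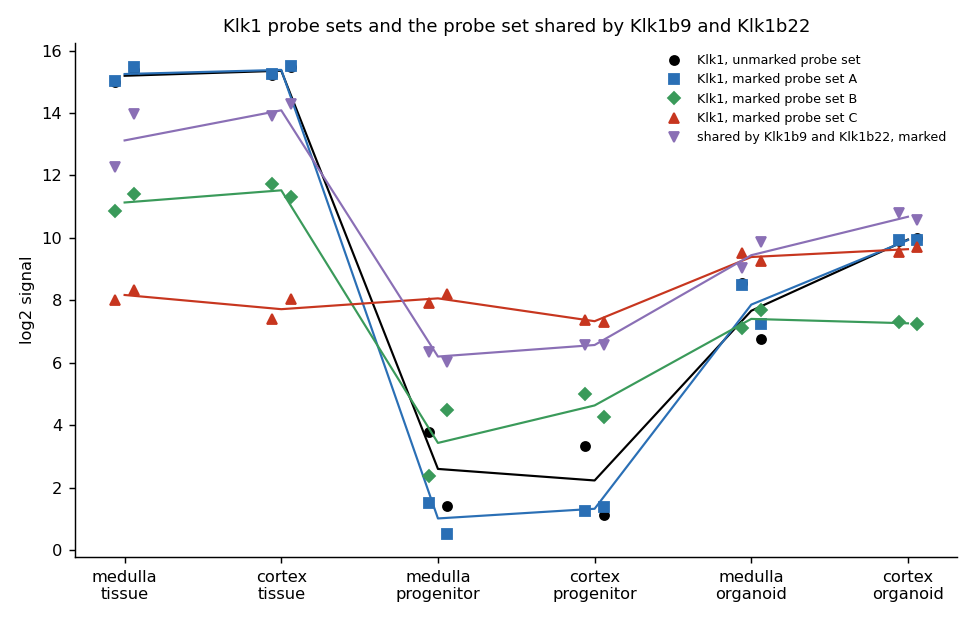
Log2 signal of the 4 Klk1 probe sets and of the probe set shared by Klk1b9 and Klk1b22, with a point for each array and lines through the group means. Marked probe sets (ID ending in _x_at) may bind related transcripts, and the one drawn in red stays between 7.30 and 9.73 where the others drop in progenitor cells.

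The other kallikreins on the array were mostly dim. Of 15 further Klk genes with a probe set of their own, 5 were tested: Klk1b8, Klk1b11, Klk1b16, Klk1b24 and Klkb1. Klkb1 is plasma kallikrein, which is named for its activity and is not part of the chromosome 7 cluster. In progenitor cells against tissue, Klk1b16 (-2.85 ± 0.29, adjusted p = 2.649e-06), Klk1b24 (-2.08 ± 0.31, adjusted p = 5.626e-05) and Klkb1 (-2.96 ± 0.36, adjusted p = 1.248e-05) fell. In organoids against progenitor cells, Klk1b24 rose (1.37 ± 0.31, adjusted p = 0.001542), and the other 4 did not pass. All 3 genes that fell were also called lower in organoids than in tissue. Klk1b16 was tested only through cortex tissue and Klkb1 only through tissue, so their lower calls against tissue are a description. For Klk1b24 the limma call was narrow (-0.71 ± 0.31, adjusted p = 0.04795) and the arrays overlapped. Of all tested genes, 35.9% fell in the first comparison, 28.1% rose in the second and 46.6% were lower in organoids against tissue. Klk1b8 and Klk1b11 passed in none of the 3 stage comparisons.

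Kng1, the kininogen that Klk1 cuts, was bright in tissue and in organoids. It read 13.79 and 13.70 in medulla tissue and 13.22 and 13.59 in cortex tissue, between 7.21 and 7.76 in progenitor cells, 13.43 and 13.03 in medulla organoids, and 13.10 and 13.00 in cortex organoids. The organoid-minus-tissue difference was -0.43 ± 0.13 (adjusted p = 0.01005). A second, dimmer Kng1 probe set read 7.998 to 8.74 in tissue, 4.63 to 5.77 in progenitor cells and 11.53 to 11.75 in organoids, so the 2 probe sets disagree on which of organoids and tissue is higher. The list of kinin-related genes holds Kng1, Klkb1 and 12 others, 14 in all, and 10 of them were tested. In progenitor cells against tissue, 10 of the 10 fell, beside 35.9% of all tested genes, including Cpn1, a carboxypeptidase that trims kinins (-6.17 ± 0.21), Kng1 (-6.01 ± 0.13) and Mme, the kinin-degrading enzyme neprilysin (-2.93 ± 0.20). The median was -2.40, beside 0.03 over all tested genes. Ace, Xpnpep2 and Klkb1 passed the brightness filter through tissue alone, so their falls, and the count of 10 that holds them, are a description.

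In organoids against progenitor cells, 4 of the 10 kinin-related genes rose and 4 fell, close to the 28.1% and 44.3% of all tested genes. Kng1 rose by 5.58 ± 0.13, Cpm by 2.36 ± 0.27, Ece1 by 2.17 ± 0.11 and Cpn1 by 1.90 ± 0.21, and Mme fell by 1.40 ± 0.20. Cpm is a membrane carboxypeptidase and Ece1 is endothelin-converting enzyme, and both can cut kinins. Against tissue, 1 was higher in organoids (Ece1, 1.14 ± 0.11) and 8 were lower, beside 33% and 46.6% of all tested genes, among them Mme (-4.33 ± 0.20), Cpn1 (-4.27 ± 0.21) and Ace, angiotensin-converting enzyme (-3.12 ± 0.42). Ace, Xpnpep2 and Klkb1 are among the 8 and were tested only through tissue, so nothing is read from that count. The receptor genes Bdkrb1 and Bdkrb2 were too dim to be tested.

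The sodium channel subunits, which kallikrein and other serine proteases act on, fell in progenitor cells against tissue: Scnn1g by 5.58 ± 0.22, Scnn1b by 3.84 ± 0.31 and Scnn1a by 0.99 ± 0.16. In organoids against progenitor cells they rose, Scnn1b by 2.27 ± 0.31, Scnn1g by 1.14 ± 0.22 and Scnn1a by 0.57 ± 0.16. Scnn1b and Scnn1g stayed below tissue with no overlap of arrays. Scnn1a was called lower than tissue (-0.42 ± 0.16), but its arrays overlapped, and medulla organoid replicate 2 (10.72) lay above every tissue array. Egf, the epidermal growth factor precursor, fell by 8.91 ± 0.19 in progenitor cells against tissue and fell by a further 0.63 ± 0.19 in organoids against progenitor cells. F2r, a thrombin receptor, rose by 1.52 ± 0.15 in progenitor cells against tissue. Over the 5 tested genes of this list, 1 rose and 4 fell in progenitor cells against tissue, 3 rose and 2 fell in organoids against progenitor cells, and 0 were higher and 4 lower in organoids against tissue. Of all tested genes, 36.8% rose and 35.9% fell in the first of these comparisons, 28.1% and 44.3% in the second, and 33% and 46.6% were higher and lower in the third. Scnn1g and Egf passed the brightness filter through tissue alone, so their lower calls against tissue are a description.

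Protease inhibitors split. Slpi, a secreted inhibitor of leukocyte proteases, rose by 2.89 ± 0.15 in progenitor cells against tissue and by 2.49 ± 0.15 in organoids against progenitor cells. Spink1, a trypsin inhibitor, fell by 9.38 ± 0.17 in progenitor cells against tissue and rose by 2.21 ± 0.17 in organoids against progenitor cells. Of 4 inhibitors tested, 1 rose and 1 fell in the first comparison, and 3 rose and 1 fell in the second. Among 10 other epithelial serine proteases, 4 rose and 5 fell in progenitor cells against tissue, and 6 rose and 2 fell in organoids against progenitor cells. The shares of all tested genes are those given for the sodium channel list. Prss22, or tryptase epsilon, rose most in progenitor cells against tissue (7.63 ± 0.29), and Tmprss4, a transmembrane protease, rose in both comparisons (4.40 ± 0.24 and 1.95 ± 0.24). Plau, or urokinase, rose by 4.42 ± 0.18 in organoids against progenitor cells. Prss8, or prostasin, fell by 3.00 ± 0.11 in progenitor cells against tissue and rose by 0.37 ± 0.11 in organoids against progenitor cells.

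A mixed list of genes of the connecting tubule, where renal kallikrein is made, and of the distal convoluted tubule had 9 tested genes. In progenitor cells against tissue, 7 of the 9 fell and 1 rose, beside 35.9% and 36.8% of all tested genes. Among those that fell, Slc8a1, Kl, Slc12a3 and Pvalb passed the brightness filter through tissue alone. Their lower calls against tissue, and the counts that hold them, are therefore a description. In organoids against progenitor cells 3 rose and 2 fell, beside 28.1% and 44.3% of all tested genes, so the share that rose is near that of all genes. S100g, the small calcium-binding protein calbindin-D9k, rose by 7.63 ± 0.20, Calb1, calbindin-D28k, by 3.55 ± 0.17, and Wnk4, a kinase that regulates distal salt transport, by 1.92 ± 0.17. The sodium-calcium exchanger Slc8a1 (-0.07 ± 0.32, adjusted p = 0.8432) and the sodium-chloride cotransporter Slc12a3 (-0.05 ± 0.32, adjusted p = 0.9025) did not pass and stayed far below tissue. S100g read 13.67 and 13.08 in medulla organoids and 13.48 and 13.22 in cortex organoids, with no region difference past the threshold (0.02 ± 0.28, adjusted p = 0.9743). Calb1 read 9.95 and 10.18 in medulla organoids and 7.21 and 6.51 in cortex organoids, higher in medulla by 3.05 ± 0.24 (adjusted p = 3.625e-05), the opposite direction to Klk1. All 8 that passed in organoids against tissue were lower, beside 46.6% of all tested genes. Slc8a1, Kl, Slc12a3 and Pvalb are among the 8, so nothing is read from this count.

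**Figure D4:**
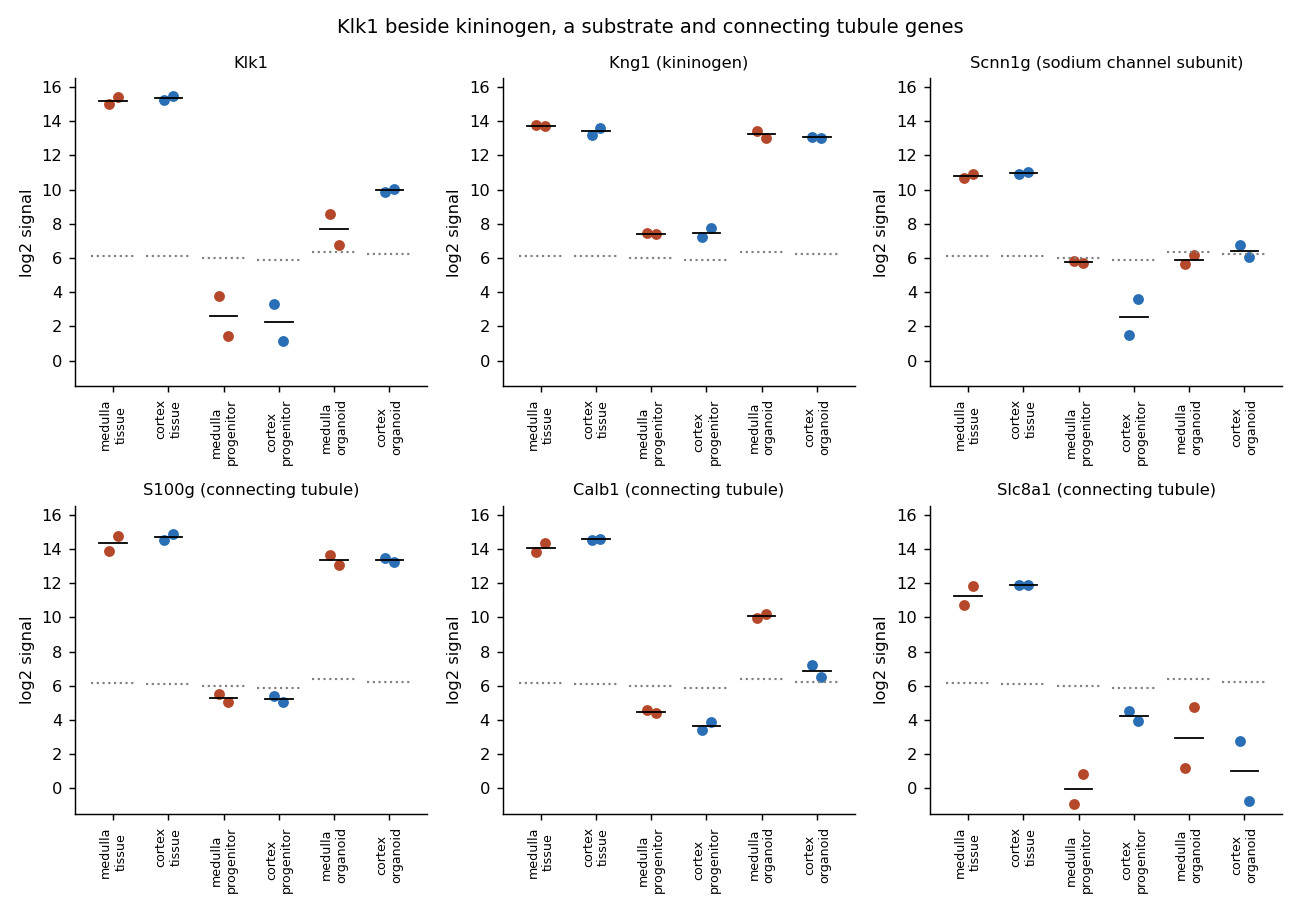
Log2 signal of Klk1, Kng1, Scnn1g and 3 connecting tubule genes on the 12 arrays, with red points for medulla, blue points for cortex, black bars for group means and dotted grey lines for the mean of the array medians. Kng1 and S100g in organoids lie close to tissue, Klk1 and Calb1 lie between progenitor cells and tissue with opposite region orders, and Slc8a1 does not exceed 4.76 in organoids.

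Expression of several Klk1b genes is known in mouse to depend on androgens, and the labels give no sex. Xist, which is transcribed from the inactive X chromosome, read 12.11 to 13.09 and was above the array median on all 12 arrays. The Y-linked genes Eif2s3y, Kdm5d and Uty were above the median on 0 of 12 arrays and read no more than 5.37.

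Across the 12 arrays, Klk1 and Klk1b5 ran most alike among the tested members (Pearson r = 0.976), followed by Klk1b21 and Klk1b27 (0.842). Klk1 and Klk1b21 had r = 0.456, and Klk8 had a negative r with every other tested member, from -0.535 with Klk1 to -0.779 with Klk1b27. The non-kallikrein genes most like Klk1 were Cryz (0.996), Ahcyl2 (0.995) and Osbpl1a (0.993). Those most like Klk1b5 were Apmap (0.994), Tbck (0.990) and D630045J12Rik (0.990). For Klk1b21 they were Ring1 (0.963), Tmem218 (0.931) and Alox5ap (0.928), and for Klk1b27 Mtcp1 (0.971), Wnt5b (0.968) and C2cd2l (0.968). For Klk8 they were Lsm4 (0.987), Eif2b3 (0.983) and Pawr (0.982). These correlations rest on 6 groups of 2 arrays each, and arrays of a group or stage share their source, so they describe likeness of pattern only.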

How the data were processed

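RNA from 12 mouse kidney samples was measured on Affymetrix 3′ expression arrays. The authors deposited 1 log2 signal for each probe set, made with MAS5 per the submitters' processing notes, which give no version. Each array had a mean linear signal of 500 once its top and bottom 2% were trimmed. Detection calls were not used. Of 45101 probe sets, 64 controls were left out, and the platform annotation gave 1 symbol to 34958, several to 932 and none to 9211 (34754 of the first matched a current mouse gene).

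Values were unlogged, 15.1473 signal units (their 25th percentile) were added and log2 was retaken. With R 4.3.3 and limma 3.58.1, 1 model of 6 group means (6 residual degrees of freedom, variance trend) was fitted to the brightest single-symbol probe set of each of 13037 genes, with two-sided tests and Benjamini-Hochberg adjustment over all of them at 0.05. It was tested on simulated data. The number of arrays limits the precision. Levels in the text are the deposited log2 signals, and differences are on the offset scale.

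The listed kallikreins and the gene lists were chosen with earlier results of these data known. Named are the 7 listed genes, the 3 most correlated genes of each tested one, other Klk genes called in a stage comparison, and up to 4 of the largest changes per list, with further list members given for context. The untested Klk genes were counted only. Alternatives were other scalings, offsets, filters, probe set rules, fits and arrays left out. Promoter sequences are RefSeq's (GRCm38.p6). The sources used here name no genome build of the authors.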

Additional observations from a re-analysis of the deposited data

Results flagged for a closer look

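For Klk1b27, the medulla change minus the cortex change between progenitor cells and organoids was -3.09 on the log2 scale and passed the threshold in limma's interaction fit. The gene was selected with these signals known, so this value is a description and no independent evidence of a region difference. Its signal was 4.67 and 2.28 in medulla organoids and 7.96 and 7.68 in cortex organoids. The call was lost with an offset of 1 (difference -4.24). It was also lost without any 1 of the 4 progenitor arrays or cortex organoid replicate 1, with differences between -2.96 and -3.17.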

How the results depend on the processing

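Over the single-gene differences, 286 results kept direction and side of the threshold under other settings, 7 gained a call, 10 lost one and 2 reversed; with 1 array left out, 279 kept both, 9 gained a call, 12 lost one and 0 reversed. The reversals came from single regions, chosen after seeing the data: Klk1b21 in organoids against tissue was -1.13 in medulla alone, and Klk1b27 was 0.89 in cortex alone. Called kallikrein genes fell to 1 of 5 for medulla against cortex organoids with the compared groups alone (3 in the full fit), and to 3 for organoids against progenitor cells in medulla alone (5 in the full fit). The region dependence of the organoid-against-progenitor change gave 1 call, 0 with an offset of 1 and 3 with an offset of the median signal. Leaving out 1 array gave 4 to 5 calls for progenitor cells against tissue, 5 to 5 for organoids against progenitor cells, 2 to 4 for organoids against tissue, 3 to 4 for medulla against cortex organoids, and 0 to 4 for the region dependence. The Klk1 difference in progenitor cells against tissue was -12.54 with an offset of 1, -9.16 with the median signal as offset and -7.13 with the mean of all probe sets, so its size depends on the offset and the probe sets. Scaling to the 75th percentile shifted the median of all genes by -0.11 for organoids against progenitor cells and by -0.22 for organoids against tissue, and quantile normalization by less than 0.1 in size. The filter that asked for signal above the median on all 12 arrays left no listed gene. With the replicate number as a block, the counts were unchanged at 5, 5, 3, 0, 0, 3, 0 and 1 in the 8 comparisons, and same-numbered arrays did not deviate together (r from -0.138 to 0.0569 over 15 pairs of groups). For 5 of 10 probe sets the highest group was a tissue group under all 3 scalings.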
